A study of Mus musculus with 12 samples.

Results

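Expression of 10 genes was followed in the heart and lung of Adam19 wildtype (WT) and knockout (KO) mice: the natriuretic peptide genes Nppa and Nppb, the receptor genes Npr1, Npr2 and Npr3, the protease genes Corin and Furin, and the cardiac stress genes Ankrd1, Acta1 and Xirp2. They were selected by gene name, and all 10 were found among the 55679 genes of the table. The comparison addressed whether KO hearts carry an expression pattern of hypertrophy or strain. Adam19 encodes a membrane-bound metalloprotease that sheds proteins from the cell surface. Stranded total RNA was sequenced in 12 libraries, from the whole heart and the lung of 6 male mice of the 129S6/SvEvTac background aged 9 to 13 weeks, 3 WT and 3 KO. KO mice carried 2 copies of the Adam19-tdTomato allele in every cell of the body, where tdTomato takes the place of exons 6 and 7, and WT mice carried the endogenous locus. Replicates 1, 2 and 3 of a genotype were the same mice in heart and lung. The mouse identifiers share no prefix between WT and KO, so that prefix and genotype cannot be told apart.

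Atrial natriuretic peptide (Nppa) and B-type natriuretic peptide (Nppb) are hormones that heart muscle releases when its wall is stretched. Corin and Furin cleave the precursors, the receptors Npr1 and Npr2 answer by making cyclic GMP, and Npr3 removes the peptides from the circulation. In the adult mouse Nppa is made mostly in the atria. A rise of Nppa, Nppb, Acta1 and Ankrd1 in the ventricles is a textbook sign of pressure overload and hypertrophy.

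Summed estimated counts ranged from 17674788 to 35862932 per library. In hearts they were 18392292 to 33906290 in WT and 31784742 to 35862932 in KO, and the part of this gap in depth in the results was not tested. Adam19 was at 9.17, 9.25 and 10.27 in WT hearts and at 6.67, 6.01 and 6.56 in KO hearts, and the Adam19_TdTomato construct was at 10.78 to 11.60 in KO hearts and at 0 to 2.16 in WT hearts. The 10 cardiomyocyte markers had a summed level of 20.97 to 21.25 in hearts and of 13.48 to 14.73 in lungs. In lungs the heart muscle genes Myh6 (12.46 to 14.24) and Myl7 (10.14 to 12.15) were present, whereas the atrial gene Bmp10 was at 0 in all 6 lungs. Hearts differed in the level of atrial markers. The mean level of 8 atrial markers, which do not include Nppa, was 11.93, 12.06 and 10.43 in WT hearts 1, 2 and 3 and 12.50, 10.34 and 12.53 in KO hearts 1, 2 and 3, so that WT heart 3 and KO heart 2 stood below the other 4. All gene values are on the deposited log2 scale, and a gene was called in a KO against WT comparison when the adjusted p of limma was under 0.05, the fold change at least 1.5 and the highest group mean at least 6.

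None of the 10 genes was called between KO and WT hearts, where 0.085% of the 15303 genes tested were called. Nppa came nearest. It was 2.10-fold higher in KO hearts, and its KO libraries all lay above its WT libraries, which held for 7.82% of all genes tested, while the KO libraries of 5.23% of all genes lay all below. No other of the 10 genes was separated in either direction. By unadjusted p under 0.05, 1 of the 10 genes passed with limma on the deposited values, and 1 of 10 with limma-voom, which called 0 as well.

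**Figure D1:**
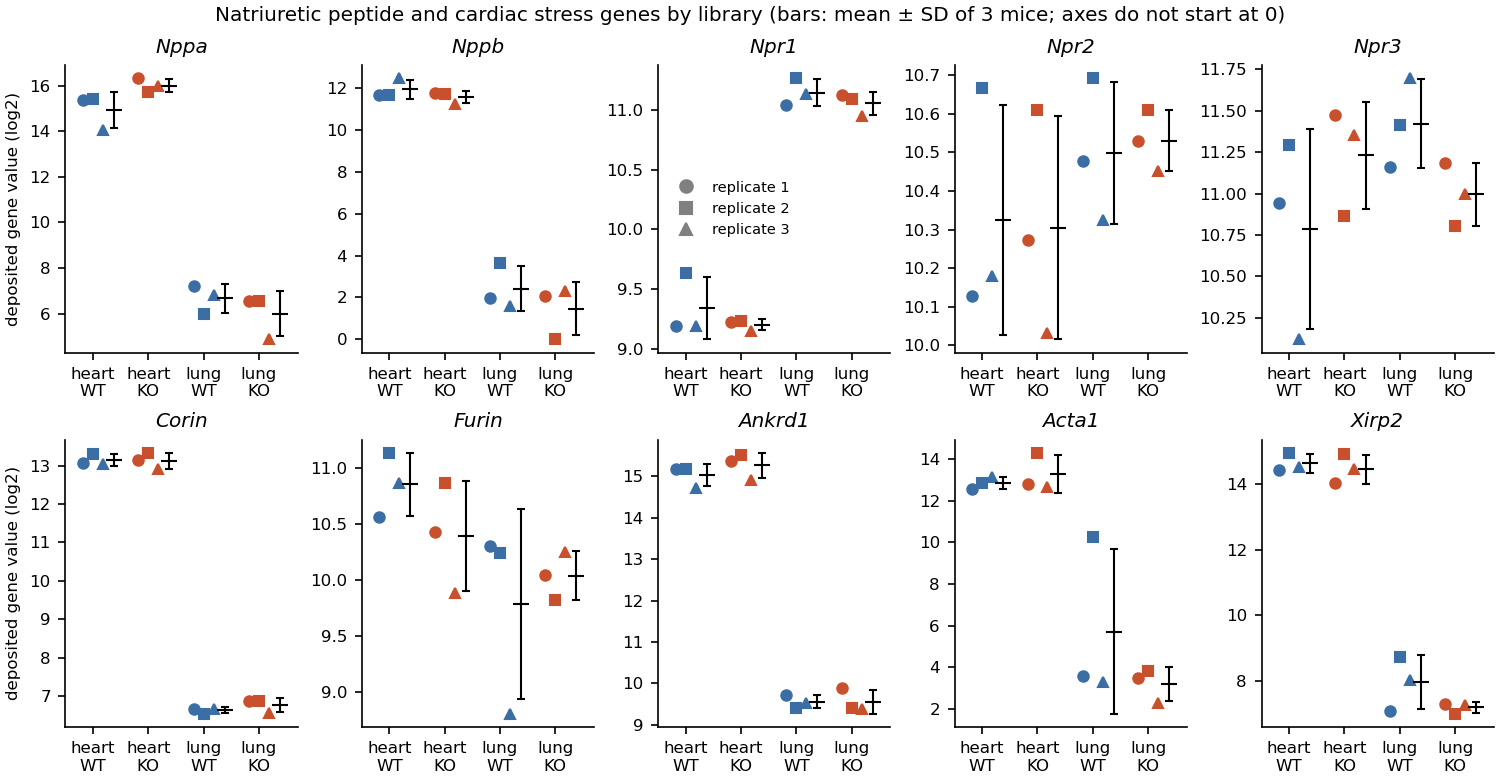
Deposited gene values (log2, y axis, scaled for each gene) of the 10 genes in the 12 libraries; symbols mark replicates 1 to 3, and black bars give the mean ± SD of 3 mice beside the points. Only Nppa separates the KO from the WT hearts, whereas 6 of the 10 genes lie far higher in heart than in lung in both genotypes.

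Nppa (ENSMUSG00000041616.10; chromosome 4, 148085091 to 148086583, forward strand, GRCm39; 3 exons) was at 15.35, 15.40 and 14.03 in WT hearts and at 16.32, 15.72 and 15.96 in KO hearts. WT heart 3 was the lowest and every KO heart exceeded every WT heart. The SD over the mice of a genotype was 0.78 in WT and 0.30 in KO hearts. The log2 difference was 1.07 (SE 0.35, 95% confidence interval 0.28 to 1.87), with an adjusted p of 0.600 over all genes (limma, Benjamini-Hochberg). The exact two-sided permutation test gave p = 0.1, the smallest that 3 mice against 3 allow. Without WT heart 3 the difference was 0.62, and all KO hearts were then still above the 2 remaining WT hearts. Adjusted p ranged from 0.324 to 0.999 over the 16 alternatives tried.

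Because Nppa is an atrial gene, its level was set beside the atrial markers. Of the 8 atrial markers 7 were higher in KO hearts and 0 were called, with a median difference of 0.40. This direction was set by single hearts. Without WT heart 3, 2 were higher and 6 lower (median −0.16). Without KO heart 2 all 8 were higher (median 1.22) and 1 was called, beside 21 of 15636 genes tested. The summed level of the atrial markers was 14.11 to 16.05 in WT hearts and 14.16 to 16.69 in KO hearts. None of the 8 was at 0. Nppa minus the mean atrial marker level was 3.42, 3.34 and 3.60 in WT hearts and 3.82, 5.38 and 3.44 in KO hearts, so that the groups overlapped (exact permutation p = 0.2, two-sided) and KO heart 2 stood apart. At nearly the same atrial level, KO heart 2 had an Nppa value of 15.72 and WT heart 3 of 14.03. Nppa minus the mean atrial marker level differed by 0.76 with all hearts, by 0.18 without KO heart 2 and by 0.70 to 1.15 without any other heart. With the atrial level as a covariate the KO minus WT difference was 0.94 (SE 0.26, adjusted p = 0.503, limma). With WT heart 3 and KO heart 2 both left out it was 0.76 (SE 0.22, adjusted p = 0.324, limma). The hearts then left were not matched in atrial level. Of the 8 atrial markers 6 were higher in KO and 2 lower, with a median of 0.62. In 5 the KO hearts lay all above, beside 24.3% of all genes, and 1 was called, beside 31 of 15433 genes tested. In bulk tissue a change in the share of a cell type and a change in RNA per cell cannot be told apart.

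**Figure D2:**
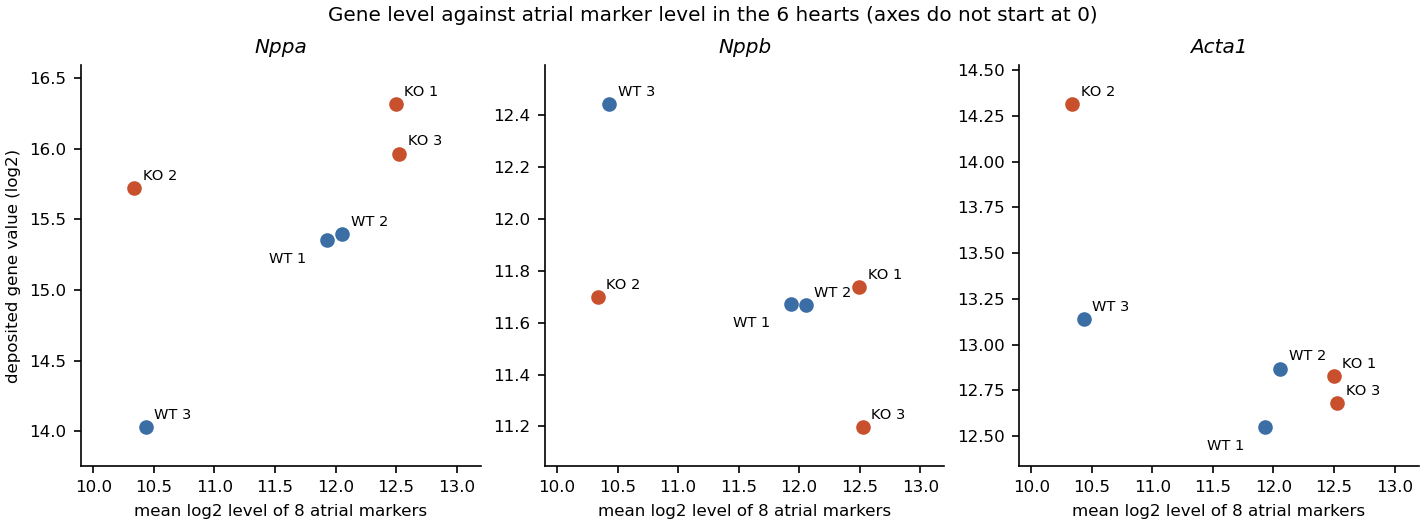
Deposited log2 values of Nppa, Nppb and Acta1 (y axes) against the mean log2 level of 8 atrial markers (x axis) in the 6 hearts, WT in blue and KO in red, each point 1 heart with its replicate number. WT heart 3 and KO heart 2 lie at the left, at 10.43 and 10.34, with Nppa at 14.03 and 15.72 and Acta1 at 13.14 and 14.31.

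Nppb (ENSMUSG00000029019.9; chromosome 4, 148069859 to 148071662, forward strand, GRCm39; 3 exons) lies 13428 bases before Nppa on the same strand. It did not follow Nppa. Nppb was at 11.67, 11.67 and 12.44 in WT hearts and at 11.74, 11.70 and 11.20 in KO hearts. WT heart 3, the lowest in Nppa, was the highest in Nppb, and the groups overlapped. The difference was −0.38 (SE 0.23, 95% confidence interval −0.91 to 0.15, adjusted p = 0.741, limma), and −0.12 without WT heart 3. Nppa minus Nppb within each heart was 3.68, 3.73 and 1.59 in WT and 4.58, 4.02 and 4.77 in KO. This within-heart difference was higher in each KO heart than in each WT heart, by 1.45 on average (exact permutation p = 0.1, two-sided, the smallest possible), and by 0.75 without WT heart 3.

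The 250 bases before the start site of the main transcript of each gene are shown because Nppa and Nppb are neighbours whose values did not move together over the 6 hearts. They were read from GRCm39 at chr4:148084841-148085090 for Nppa and chr4:148069995-148070244 for Nppb, both on the forward strand. The annotated Nppb gene begins at 148069859 and its main transcript at 148070245. The Nppb window thus lies inside the gene span, whereas the Nppa window lies before its gene. Capitals mark matches on either strand to AGATAA and TGATAA, forms of the letters bound by GATA factors, and to AAGTG, the core bound by NKX2-5. Other forms of these sites were not searched, so unmarked letters can still hold them. CATTCC, bound by TEAD factors, the CArG box of SRF and the MEF2 box were searched too.
Nppa: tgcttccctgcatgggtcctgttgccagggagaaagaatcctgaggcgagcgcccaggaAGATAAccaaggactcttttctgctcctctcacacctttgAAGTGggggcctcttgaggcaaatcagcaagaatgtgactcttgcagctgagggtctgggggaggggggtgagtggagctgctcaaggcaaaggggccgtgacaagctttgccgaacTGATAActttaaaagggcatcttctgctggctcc
Nppb: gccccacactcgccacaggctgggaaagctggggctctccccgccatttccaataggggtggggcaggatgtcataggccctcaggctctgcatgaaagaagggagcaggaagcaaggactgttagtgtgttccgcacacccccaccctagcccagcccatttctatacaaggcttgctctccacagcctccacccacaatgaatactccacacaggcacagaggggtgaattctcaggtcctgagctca
The Nppa window held AGATAA from 191 to 186 bases, AAGTG from 151 to 147 bases and TGATAA from 34 to 29 bases before the start, and the Nppb window held none of the 6 motifs. Among 21738 windows of the same length before protein-coding genes, AGATAA was found in 9.61%, TGATAA in 7.63%, AAGTG in 40.6%, CATTCC in 12.1%, the CArG box in 1.40% and the MEF2 box in 0.506%. A match is only a description of the letters.

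No receptor was called between KO and WT hearts. Npr1 (ENSMUSG00000027931.13; chromosome 3, 90356458 to 90373748), the guanylyl cyclase that binds both cardiac peptides, was at 9.19, 9.64 and 9.19 in WT hearts and at 9.22, 9.24 and 9.15 in KO hearts. These groups overlapped, with a difference of −0.13 (95% confidence interval −0.49 to 0.22). Npr2 (ENSMUSG00000028469.16; chromosome 4, 43631339 to 43651436), the receptor of C-type natriuretic peptide, was at 10.13, 10.67 and 10.18 in WT hearts and at 10.27, 10.61 and 10.03 in KO hearts. Its difference was −0.02 (95% confidence interval −0.46 to 0.42). Npr3 (ENSMUSG00000022206.8; chromosome 15, 11839982 to 11907373), the clearance receptor and a marker of the endocardium, was at 10.94, 11.29 and 10.12 in WT hearts and at 11.47, 10.87 and 11.36 in KO hearts. WT heart 3 was the lowest, as it was for Nppa, and KO heart 2 was the next lowest. Both were hearts with a low atrial marker level. The Npr3 difference was 0.45 (SE 0.29, 95% confidence interval −0.20 to 1.095, adjusted p = 0.750, limma), and 0.11 without WT heart 3. With the mean atrial marker level as a covariate it was 0.32 (SE 0.18, adjusted p = 0.807, limma).

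The processing proteases were not called either. Corin (ENSMUSG00000005220.11; chromosome 5, 72457290 to 72661924), which cleaves the precursor of atrial natriuretic peptide, was at 13.07, 13.31 and 13.03 in WT hearts and at 13.14, 13.33 and 12.90 in KO hearts. Its difference of −0.01 had a 95% confidence interval of −0.36 to 0.33. Furin (ENSMUSG00000030530.16; chromosome 7, 80038333 to 80055184), a general proprotein convertase that can cleave the precursor of B-type natriuretic peptide, was at 10.57, 11.14 and 10.87 in WT hearts and at 10.43, 10.87 and 9.89 in KO hearts. KO heart 3 was the lowest of the 6. The difference was −0.46 (SE 0.25, 95% confidence interval −1.02 to 0.09, adjusted p = 0.730, limma), and −0.21 without KO heart 3.

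Nppa and Nppb each have a single transcript in the table, whereas the other genes can be split. Corin counts were divided between ENSMUST00000167460.9 and ENSMUST00000005352.10, coding forms with 3141 and 3339 coding bases. The shorter form took 58.1%, 73.4% and 36.2% of the Corin counts in WT hearts and 36.7%, 48.2% and 38.5% in KO hearts. These shares overlapped, with an exact permutation p of 0.4 (two-sided). The main coding form of Ankrd1, ENSMUST00000237142.2, took 59.0% to 94.7% of its counts over the 6 hearts, the lowest share in WT heart 2 (exact permutation p = 0.3, two-sided). The Furin form ENSMUST00000107362.10 was at 0 in every heart and could not separate. Of 17 shares compared, 1 separated the genotypes. A single share without ties does so by chance with a probability of 0.1, and the figure over all transcripts was not computed. ENSMUST00000123883.8, a minor Npr2 transcript with no coding sequence defined, took 1.85%, 2.13% and 3.48% of the Npr2 counts in WT hearts and 1.72%, 0.770% and 1.21% in KO hearts (exact permutation p = 0.1, two-sided, the smallest possible). Shares are Salmon estimates among forms that share most of their sequence, and their spread within a genotype was wide.

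The stress genes gave no common direction. Ankrd1 (ENSMUSG00000024803.10; chromosome 19, 36089352 to 36097506), a stretch-responsive titin-binding repressor, was at 15.19, 15.19 and 14.72 in WT hearts and at 15.36, 15.52 and 14.92 in KO hearts. The groups overlapped and the difference was 0.23 (SE 0.21, 95% confidence interval −0.24 to 0.71, adjusted p = 0.802, limma). It was 0.08 without WT heart 3 and −0.05 when WT heart 3 and KO heart 2 were both left out. Xirp2 (ENSMUSG00000027022.15; chromosome 2, 67004178 to 67356962), an actin-binding protein of the intercalated disc, was at 14.42, 14.97 and 14.54 in WT hearts and at 14.03, 14.91 and 14.46 in KO hearts. Its difference was −0.18 (95% confidence interval −0.73 to 0.36), and it was 0.040 without KO heart 1 and −0.40 without KO heart 2.

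Ankrd1 was the second most abundant of the 10 genes in the heart, and the 250 bases before its start, at chr19:36097507-36097756 on the reverse strand of GRCm39, are shown with the same marks.
Ankrd1: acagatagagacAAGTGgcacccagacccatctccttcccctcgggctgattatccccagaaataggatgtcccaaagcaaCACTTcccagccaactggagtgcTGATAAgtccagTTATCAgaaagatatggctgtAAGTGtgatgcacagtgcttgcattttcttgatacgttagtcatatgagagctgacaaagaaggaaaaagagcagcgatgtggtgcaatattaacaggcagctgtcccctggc
AAGTG matched from 238, 169 and 113 bases before the start, the middle match on the other strand, and TGATAA at 146 to 141 and, on the other strand, 134 to 129 bases before it.

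Acta1 (ENSMUSG00000031972.6; chromosome 8, 124618501 to 124623661), the skeletal muscle actin that is re-expressed in stressed heart muscle, was at 12.55, 12.87 and 13.14 in WT hearts and at 12.83, 14.31 and 12.68 in KO hearts. KO heart 2 alone was above the rest, and KO hearts 1 and 3 lay within the WT range. The difference was 0.42 (SE 0.39, 95% confidence interval −0.45 to 1.30, adjusted p = 0.807, limma) and −0.10 without KO heart 2. With the atrial level as a covariate it was 0.60 (SE 0.20, adjusted p = 0.640, limma). Acta1 minus the cardiac actin Actc1 was −4.98, −4.84 and −4.76 in WT hearts and −4.56, −3.51 and −4.79 in KO hearts (exact permutation p = 0.2, two-sided). No reference transcript of another gene was at least 95% identical to a main transcript of these genes over at least 500 bases. The highest identity to Acta1 was that of Actb, at 87.7% over 512 bases. Actc1, at 17.39 to 17.90 in hearts, was 86.5% identical over 1004 bases, and Acta2 85.6% over 1135 bases.

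**Figure D3:**
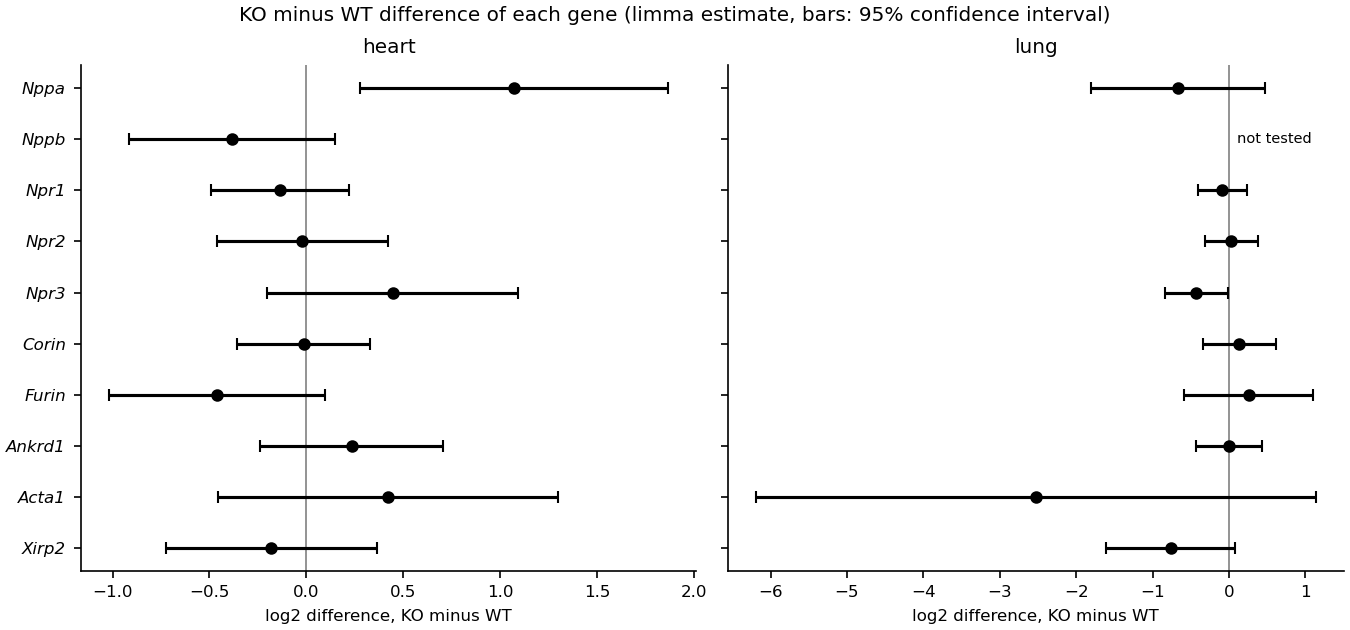
KO minus WT log2 difference (x axis) of each gene (y axis) in the heart (left) and the lung (right), as estimated by limma, with 95% confidence intervals; the x axes differ. In the heart the interval of Nppa, 0.28 to 1.87, lies above 0 and those of the other 9 genes include 0; in the lung the interval of Acta1 reaches from −6.19 to 1.14.

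The surrounding pathways were described by lists of genes drawn up from textbook knowledge, with earlier results of these data known. Counts of list genes beside the share of all genes are therefore descriptions and not tests. Of 16 other natriuretic and cyclic GMP genes 14 were tested and 0 were called in the heart, 7 higher and 7 lower in KO, with a median of 0.07 beside 0.03 over all genes. Nppc, the C-type peptide gene, was at 0 to 1.80 in hearts and was not tested. Gucy1b1, a subunit of soluble guanylyl cyclase, was at 9.17, 9.12 and 8.76 in WT hearts and at 9.45, 9.28 and 9.27 in KO hearts. Ide, a protease that degrades natriuretic peptides, was at 11.86, 12.07 and 11.83 in WT hearts and at 11.59, 11.76 and 11.57 in KO hearts. These were the 2 genes of the list whose genotypes did not overlap, 1 of 14 above beside 7.82% of all genes and 1 of 14 below beside 5.23%, with differences of 0.32 (adjusted p = 0.694, limma) and −0.28 (adjusted p = 0.666, limma).

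Genes of hypertrophy and strain were more often lower than higher in KO hearts. Of all genes tested 55% were higher in KO hearts, with a median of 0.03. Of 33 hypertrophy and strain genes 31 were tested and 0 were called. In KO hearts 10 were higher and 21 lower, with a median of −0.15. Without WT heart 3 they were 13 higher and 18 lower, with a median of −0.05, and without KO heart 2 they were 6 higher and 25 lower. KO heart 3 was the lowest of the 6 hearts in 16 of the 31 genes, and in 2811 of all 15303 genes tested. Myh7, the fetal myosin heavy chain that returns in hypertrophy, was at 16.19, 16.42 and 16.50 in WT hearts and at 16.22, 16.65 and 16.04 in KO hearts. Myh7 minus Myh6 was −3.86, −3.68 and −3.93 in WT hearts and −3.97, −3.51 and −4.33 in KO hearts (exact permutation p = 0.7, two-sided). The KO hearts lay all above the WT hearts in 2 of the 31 genes, beside 7.82% of all genes. They lay all below in 0, beside 5.23%. With all 6 hearts the list held no more such genes than the background, but this rested on KO heart 2. Without KO heart 2, 10 of the 31 lay all below, beside 13% of all genes, and 2 all above, beside 16.2%. Without WT heart 3, 2 lay all below, beside 11.3%, and 3 all above, beside 14.4%. With both hearts left out, 12 lay all below, beside 21.3%, and 4 all above, beside 24.3%. Uchl1, a neuronal ubiquitin hydrolase also found in stressed heart muscle, was at 7.20, 6.43 and 6.75 in WT hearts and at 8.25, 7.99 and 7.92 in KO hearts, a difference of 1.26 (SE 0.23, adjusted p = 0.194, limma). Tnnt1, slow skeletal troponin T, was at 7.95, 7.53 and 7.88 in WT hearts and at 8.62, 8.56 and 8.27 in KO hearts, a difference of 0.70 (SE 0.18, adjusted p = 0.456, limma). Among the 16 adult genes that fall in hypertrophy, 9 were higher and 7 lower in KO hearts with a median of 0.02, and 0 were called. Ppargc1a, a regulator of mitochondrial genes, was at 11.21, 11.56 and 11.43 in WT hearts and at 10.92, 11.00 and 10.90 in KO hearts, a difference of −0.46 (SE 0.13, adjusted p = 0.481, limma). Ppara, a regulator of fatty acid oxidation, was at 10.69, 10.66 and 11.02 in WT hearts and at 10.61, 10.39 and 10.17 in KO hearts, a difference of −0.40 (SE 0.16, adjusted p = 0.641, limma).

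Matrix and fibrosis genes lay mostly above WT in KO hearts, although 0 of the 20 tested of 21 were called. Of these, 17 were higher and 3 lower in KO, with a median of 0.52, and in 9 of 20 the KO hearts all lay above the WT hearts, beside 7.82% of all genes. KO heart 2 was the highest of the 6 hearts in 14 of the 20 genes, 70.0%, and in 12.2% of all genes tested. Without KO heart 2, 14 of 20 were higher with a median of 0.32, and 9 of 20 were separated beside 16.2% of all genes. Without both KO heart 2 and WT heart 3, 15 were higher, and 10 were separated upwards beside 24.3% of all genes. Spp1, the matricellular protein osteopontin, was at 4.60, 5.39 and 2.32 in WT hearts and at 5.43, 9.69 and 8.17 in KO hearts, a difference of 3.66 (SE 1.06, adjusted p = 0.522, limma), and of 1.80 without KO heart 2 and WT heart 3. Tnc, tenascin C, was at 5.91, 6.13 and 5.40 in WT hearts and at 6.65, 8.15 and 7.01 in KO hearts, a difference of 1.46 (SE 0.39, adjusted p = 0.481, limma), and of 0.81 without those 2 hearts. Ltbp2, a protein that binds elastic fibres, was at 8.11, 8.19 and 7.08 in WT hearts and at 8.67, 10.18 and 8.55 in KO hearts, a difference of 1.34 (SE 0.45, adjusted p = 0.609, limma), which was 0.82 without KO heart 2 and 0.46 without both hearts. The 4 collagen genes of the list had no common direction, with differences of −0.04 for Col1a1, 0.30 for Col1a2, −0.30 for Col3a1 and 0.46 for Col8a1, and of these 4 Col1a2 alone had no overlap between the genotypes. Smooth muscle and pericyte markers lay on the same side, with 0 called. All 6 were higher in KO hearts, 4 of them without overlap, beside 7.82% of all genes. Rgs5 and Kcnj8 overlapped between the genotypes, with differences of 0.05 and 0.37. The summed level of the 6 was 14.40 to 14.51 in WT and 14.82 to 14.97 in KO hearts, with none of the 6 at 0. Without KO heart 2, 2 of the 6 were called, beside 21 of 15636 genes tested. Without KO heart 2 and WT heart 3, 2 were called, beside 31 of 15433. The part of these markers in the matrix genes was not tested.

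**Figure D4:**
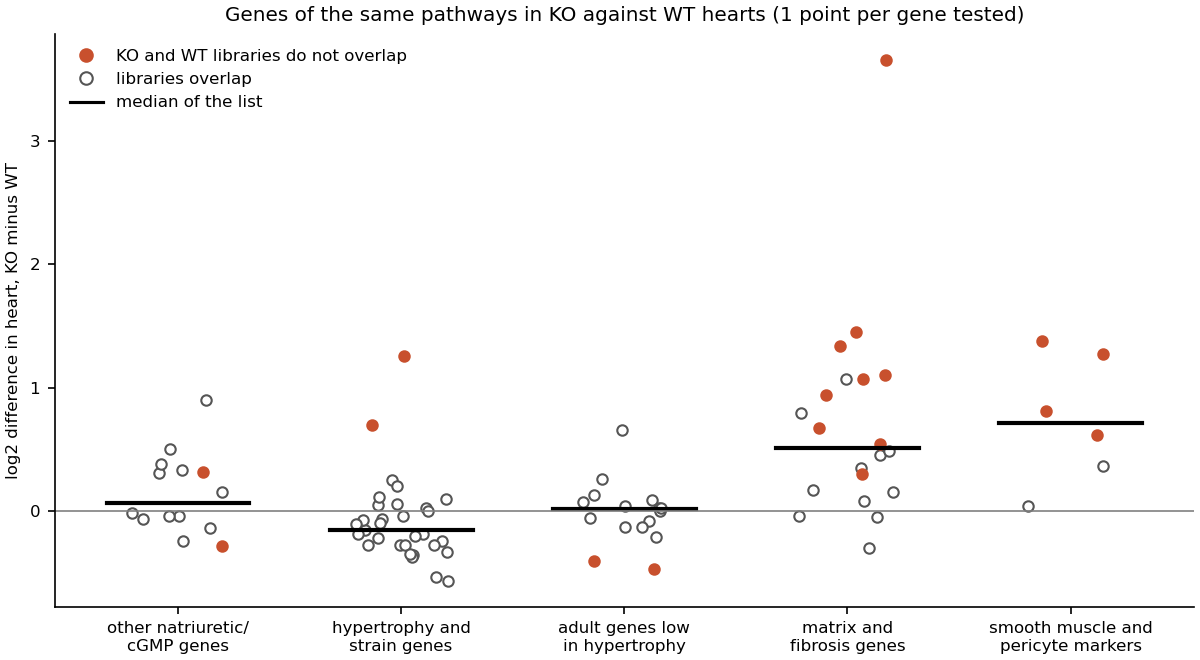
KO minus WT log2 difference in the heart (y axis) of each tested gene of 5 lists (x axis), 1 point per gene, filled where the 3 KO and 3 WT libraries do not overlap; the black line is the median of the list. The medians are 0.07, −0.15, 0.02, 0.52 and 0.71 from left to right.

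The pattern of each gene over the 6 hearts was compared with that of 11819 genes at a heart mean of at least 6, by the root mean square difference of values centred on each gene's mean. The genes most like Nppa were Smoc1 (0.15), Napb (0.19) and Sncg (0.23), beside a spread of 0.72 for Nppa itself. Smoc1 was at 8.38, 8.56 and 7.29 in WT hearts and at 9.29, 8.73 and 8.76 in KO hearts. That WT heart 3 was its lowest and its genotypes lay apart comes with the choice by likeness to Nppa. Rhbdf2, Fbxl18 and Slc22a23 were most like Nppb, at 0.08 each, beside its own spread of 0.37. Kdsr (0.06), Ptch1 (0.08) and Sugp1 (0.08) were most like Ankrd1, beside a spread of 0.27. Inhba (0.17), Krt80 (0.22) and Col8a1 (0.26) were most like Acta1, beside a spread of 0.59. Each had its highest value in KO heart 2, at 7.79, 7.12 and 10.60, which likewise comes with the choice by likeness to Acta1.

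In the lung, none of the 9 genes tested was called between KO and WT, where 0.0665% of 16551 genes were called. In none did the KO libraries all lie above the WT libraries, as they did in 6.41% of all genes, or all below, as in 6.4%. With an unadjusted p under 0.05, limma gave 1 of the 9 genes and limma-voom 0. Nppb was at 1.99, 3.64 and 1.61 in WT lungs and at 2.09, 0.00 and 2.32 in KO lungs and was too low to be tested. Nppa was at 7.19, 5.97 and 6.83 in WT lungs and at 6.57, 6.57 and 4.87 in KO lungs, with a difference of −0.66 (SE 0.50, adjusted p = 0.842, limma) that was −0.097 without KO lung 3. Npr3 was at 11.16, 11.41 and 11.70 in WT lungs and at 11.19, 10.81 and 11.00 in KO lungs. Its difference of −0.43 had a 95% confidence interval of −0.84 to −0.01 and an adjusted p of 0.828 (limma). Xirp2 was at 7.08, 8.73 and 8.03 in WT lungs and at 7.29, 6.99 and 7.27 in KO lungs, a difference of −0.76 (SE 0.37, adjusted p = 0.836, limma), and −0.37 without WT lung 2 and −1.20 without WT lung 1. Of 9 cardiomyocyte markers tested in the lung, 8 were lower in KO, with a median of −0.30 and a summed level of 13.98 to 14.73 in WT and 13.48 to 14.01 in KO lungs, and their part in the lung values of Nppa and Xirp2 was not tested. With library sizes in place of the deposited scaling, the median of all lung genes moved from 0.01 to 0.29, so lung directions are relative to that scaling. These library sizes include the single gene Rn7s1. It held 34.0%, 29.9% and 2.10% of the summed gene abundance in WT lungs and 10.5%, 3.22% and 20.3% in KO lungs. Its part in the shift of the median was not tested.

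Acta1 in the lung was set by 1 library. It was at 3.59, 10.27 and 3.30 in WT lungs and at 3.502, 3.80 and 2.27 in KO lungs. WT lung 2 also held the skeletal muscle genes Myh1 at 10.21 and Tnnt3 at 8.72, which were at most 4.80 and 5.38 in the other 5 lungs. The difference of −2.53 (SE 1.61, adjusted p = 0.841, limma) was −0.25 without WT lung 2. The part of skeletal muscle RNA in the other lung values was not tested.

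Npr1 and Npr2 in the lung were close between genotypes. Npr1 was at 11.04, 11.27 and 11.13 in WT lungs and at 11.13, 11.09 and 10.95 in KO lungs, and Npr2 was at 10.32 to 10.69 and 10.45 to 10.61. Corin was at 6.54 to 6.67 in WT and 6.55 to 6.87 in KO lungs, Furin at 8.80 to 10.31 and 9.82 to 10.25, and Ankrd1 at 9.41 to 9.73 and 9.38 to 9.89. The largest of these 5 differences was 0.26, for Furin, where WT lung 3 at 8.80 was the lowest, and without that library it was −0.23. The other lists gave 0 called genes in the lung as well. Among the natriuretic and cyclic GMP genes 5 of 14 were higher in KO lungs, among the hypertrophy and strain genes 12 of 29, and among the matrix genes 11 of 19, with medians of −0.06, −0.10 and 0.09.

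The KO effect was not shown to differ between heart and lung for any of the 10 genes. In 1 model of the 4 groups, 0.00566% of 17666 genes passed an adjusted p under 0.05, which is 1 gene, and 2 genes with the mouse as a replicate block. For Nppa the heart effect exceeded the lung effect by 1.74 (SE 0.68, 95% confidence interval 0.26 to 3.21, adjusted p = 0.599, limma), and for Npr3 by 0.87 (SE 0.38, 95% confidence interval 0.05 to 1.69, adjusted p = 0.623, limma), or 0.54 without WT heart 3. Those 2 of the 10 had an unadjusted p under 0.05, and with limma-voom 1 of the 10 did and 0 were called.

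Between the tissues, the peptide, Corin and stress genes were far higher in heart and Npr1 was higher in lung, in both genotypes. In WT mice 7 of the 10 genes were called higher in heart, beside 20.5% of all genes tested, and 1 was called lower, beside 29.7%. In KO mice 6 were called higher, beside 22.3%, and 1 lower, beside 30.9%. The WT difference was 8.26 (SE 0.42) for Nppa, 6.51 (SE 0.15) for Corin, 5.47 (SE 0.19) for Ankrd1 and 6.70 (SE 0.38) for Xirp2, with adjusted p of 1.5e-06, 1.3e-07, 2.8e-07 and 2.3e-06 (limma). In KO mice these differences were 9.997, 6.36, 5.71 and 7.28. For Nppb the fitted difference of 9.51 in WT mice rests on lung values near 0 and was 7.53 with a pseudocount of 16. For Acta1 it was 7.13 in WT mice, where lung 2 holds skeletal muscle RNA, and 10.08 in KO mice. Npr1 was lower in heart by a log2 difference of −1.81 in WT (SE 0.18, adjusted p = 4.4e-05, limma) and −1.85 in KO mice (SE 0.10, adjusted p = 1.2e-06, limma). The 7 endothelium markers had a median of −1.46 in WT mice (6 lower in heart, 1 higher) and −1.42 in KO mice (7 lower). Their part in the Npr1 difference was not tested. Furin was called in WT mice, with a difference of 1.07 (SE 0.39, adjusted p = 0.039, limma), and the call was lost in 7 of 14 alternatives. In KO mice Furin differed by 0.36 (adjusted p = 0.206, limma), and it was called there without KO heart 3 (0.61, adjusted p = 0.023, limma). Its heart-lung difference was not shown to differ between genotypes (−0.72, adjusted p = 0.733, limma). Npr2 and Npr3 were not called in either genotype, and with limma-voom Npr2 was called lower in heart in both and Npr3 in WT mice.

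Levels of different genes were compared per length, as log2 of 1 plus the scaled estimated count per kilobase of transcript. In the heart Nppa was first at 15.53 (mean of 6 hearts), followed by Ankrd1 at 14.14, Acta1 at 12.35, Nppb at 12.09, Xirp2 at 11.08, Corin at 10.88, Npr2 at 8.55, Furin at 8.53, Npr3 at 8.48 and Npr1 at 6.91. Nppa exceeded Ankrd1 in 6 of 6 hearts, although their ranges over hearts met, and Acta1 and Nppb, Xirp2 and Corin, and Npr2, Furin and Npr3 could not be ordered beyond their spread. Gaps without overlap lay below Ankrd1, Nppb, Corin and Npr3. In the lung the order was led by the receptors Npr2 (8.81), Npr1 (8.74) and Npr3 (8.64) together with Ankrd1 (8.56), which overlapped. Furin followed at 7.82, Nppa at 6.40, Corin at 4.48, Xirp2 at 4.18, Acta1 at 3.82 and Nppb at 2.17. Thus Npr1, the last of the 10 in the heart, was among the first in the lung.

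**Figure D5:**
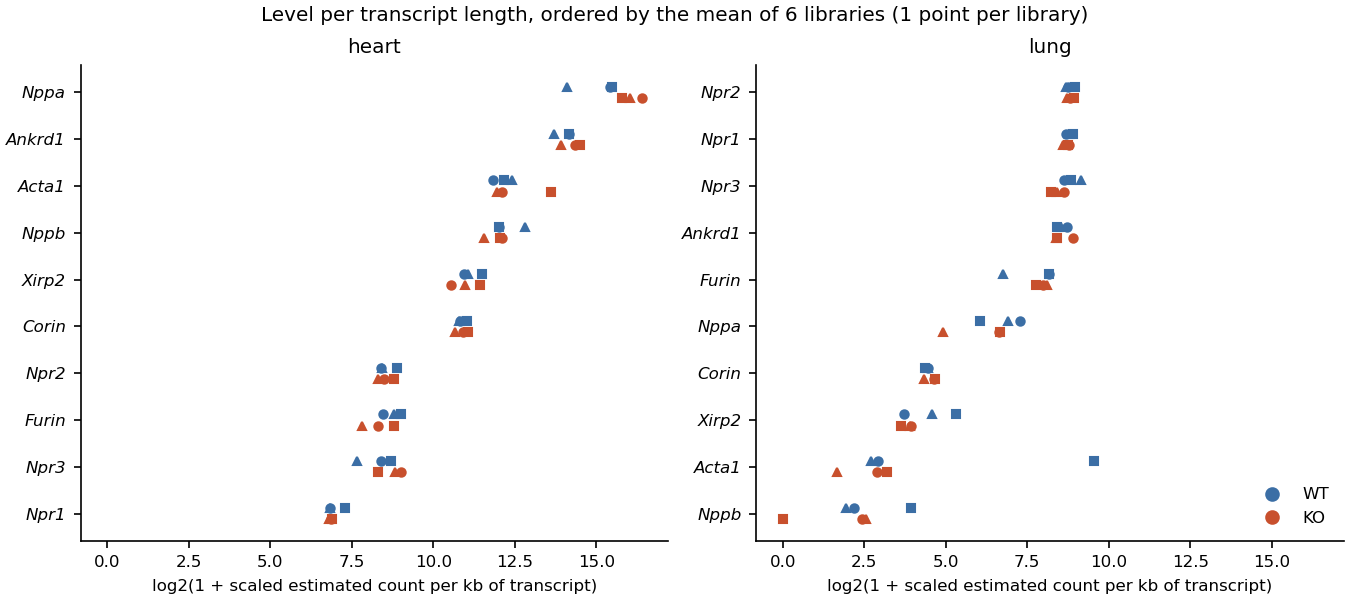
Level per transcript length (x axis, log2 of 1 plus the scaled estimated count per kilobase) of the 10 genes (y axis, ordered by the mean of 6 libraries) in the heart (left) and the lung (right), 1 point per library, WT in blue and KO in red, with circles, squares and triangles for replicates 1, 2 and 3. Nppa leads in the heart at a mean of 15.53 and Npr2 in the lung at 8.81.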

How the data were processed

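RNA was measured in 12 libraries, 1 heart and 1 lung library from each of 3 WT and 3 KO mice, grouped by their titles. The authors estimated transcript abundance with Salmon on mm39 and GENCODE vM33; the submitters' processing notes also name cutadapt, STAR and limma 3.42.2. The deposited gene and transcript values are on a log2 scale, transcripts as log2 of 1 + estimated count, genes with a further scaling constant per library. The method behind the constants is not given in the sources used here. Zeros were kept.

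Deposited gene values were tested with limma 3.58.1 (lmFit, eBayes with a trend; R 4.3.3) in each tissue, keeping genes that reached 3.46 (a count of 10) in 3 or more libraries, with Benjamini-Hochberg adjustment over all genes tested. Tissue comparisons and the difference of KO effects used the same test. Quantities taken 1 at a time were given an exact permutation test, two-sided, whose smallest p with 3 mice against 3 is 0.1. Nothing beyond the mouse identifiers describes the replicates. The pairing of heart and lung comes from the mouse identifiers; deviations from group means correlated at 0.05, 0.14 and −0.02 in WT and 0.02, −0.07 and −0.04 in KO mice over 17666 genes. The fits were tested on simulated data.

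Levels per kilobase used transcript lengths of GENCODE vM39, which annotates the same assembly; all 56 transcripts of the 10 genes matched by identifier. Near-identical copies were searched with blastn 2.17.0. Antisense genes of the table overlapping exons of these genes were at most 3.44 in any library, except Gm56671 opposite Ankrd1 (4.35 to 5.82 in hearts) and Spag8 opposite Npr2 (6.43 to 7.25 in lungs).

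Named are the 10 genes, Adam19, list genes called in the heart, up to 3 genes of each pathway list with the largest heart difference without overlap, and the 3 genes most like Nppa, Nppb, Ankrd1 and Acta1. Nppc, Myh7, Rn7s1, the collagen genes and the marker genes were added after their values were seen. The members and lists were chosen with earlier results of these data known. Alternatives tried were limma-voom, median centring, other filters, a pseudocount of 16, no variance trend, summed transcripts, 1 model over 12 libraries, the mouse as a block and leaving out each library; leaving out WT heart 3 with KO heart 2 and the atrial covariate were chosen after seeing the data.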

Additional observations from a re-analysis of the deposited data

How the results depend on the processing

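No KO minus WT difference of the 10 genes passed the threshold in heart, lung or between the tissues under any alternative run. In the heart the sign of small differences turned: with limma-voom for Npr2 (0.0098) and Corin (0.018), with summed transcripts for Npr1 (0.090) and Npr2 (0.025), with WT heart 3 and KO heart 2 left out for Ankrd1 (−0.049), and with the atrial covariate for Npr2 (0.0068) and Corin (0.0036). Leaving out 1 heart gave −0.10 to 0.72 for Acta1, −0.12 to 0.10 for Corin, −0.21 to 0.015 for Npr1, −0.17 to 0.15 for Npr2 and −0.40 to 0.040 for Xirp2. In the lung it turned with limma-voom for Npr1 (0.19) and Ankrd1 (0.28) and with median centring for Ankrd1 (0.0053), and leaving out 1 lung gave −0.17 to 0.087 for Ankrd1, −0.23 to 0.52 for Furin and −0.055 to 0.13 for Npr2. The heart effect minus the lung effect turned for Ankrd1 with limma-voom (−0.012), for Nppb with a pseudocount of 16 (−0.18) and for Npr1 with summed transcripts (0.18), and leaving out 1 library gave −0.17 to 0.99 for Nppb, −0.12 to 0.10 for Npr1 and −0.20 to 0.12 for Npr2. KO heart minus KO lung turned with limma-voom for Npr3 (−0.44) and Furin (−0.32), where the median of all genes moved from −0.28 to −0.95; in WT mice it moved from −0.30 to −0.72. The cause of the other turns was not tested.

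Of all genes, 13 were called in the heart, 10 to 21 with 1 heart left out (21 without KO heart 2) and 31 with WT heart 3 and KO heart 2 left out. For the heart effect minus the lung effect the count was 1, with limma-voom 0, with a pseudocount of 16 it was 6, without a variance trend 4, with the mouse as a replicate block 2 and with 1 library left out 0 to 6. The block changed no call of the 10 genes. With 3 mice a group, a heart difference of 1.07 in Nppa did not pass the threshold. The effect of depth was not tested, and Nppb in the lung and Nppc in the heart were too low to be tested.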

Other observations

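Other RNA in the hearts varied between mice. The brown fat gene Ucp1 was at 11.61, 9.21 and 4.58 in WT hearts and at 11.75, 7.65 and 10.05 in KO hearts, and the airway gene Scgb1a1 was at 6.39, 4.54 and 8.32 in WT hearts and at 10.23, 8.31 and 5.06 in KO hearts. Neither separated the genotypes. The contractile smooth muscle genes Tagln, at 10.29, 10.04 and 9.79 in WT hearts and at 11.66, 10.82 and 11.78 in KO hearts, and Cnn1, at 8.10, 8.29 and 7.91 in WT hearts and at 9.65, 8.63 and 9.85 in KO hearts, differed by 1.38 (SE 0.25, adjusted p = 0.194, limma) and 1.28 (SE 0.29, adjusted p = 0.378, limma). The genes named here were chosen after their values were seen.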
